A study of Caenorhabditis elegans with 12 samples.

Results

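Knockdown of vha-6 and knockdown of vha-16 were compared gene by gene in whole Caenorhabditis elegans. The comparison takes the 3 vha-6 RNAi libraries and the 3 vha-16 RNAi libraries, chosen by the labels, which are 6 of the 12 libraries of the series. All 18467 genes of the deposited count table entered, and 17043 had enough reads to be tested. The worms were wild-type N2, fed RNAi bacteria from the L1 larval stage and collected whole as L4 larvae or young adults, after 2.5 days at 20 °C. In both groups 25% of the bacteria carried the RNAi against the target and 75% carried the control RNAi, so the target food was diluted. The other 6 libraries are control RNAi and vha-19 RNAi, with 3 libraries each, and their levels are given beside the comparison where they help to place a value. The libraries were made from polyA-enriched RNA for the BGISeq500 sequencer. The series title speaks of a lysosomal surveillance response to stress, and this comparison asks how far depletion of different subunits of the same pump gives different transcripts.

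Both targets encode parts of the V-ATPase, or vacuolar H+-ATPase, a rotary pump that uses ATP to move protons into lysosomes, endosomes and other compartments. A cytosolic sector, V1, hydrolyses ATP and drives a membrane sector, V0, through which the protons pass. Acid activates lysosomal hydrolases, and the lysosomal surface is where the growth kinase TORC1 senses nutrients. VHA-6 is the a subunit of V0 used at the apical membrane of the worm intestine, and the worm has other a subunits for other tissues. VHA-16 is the d subunit of V0, which joins the membrane sector to the rotor of V1. In the worm intestine, lysosome-related organelles, digestive proteases and innate immune effectors share the same cells.

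The libraries of each treatment lay close together, and the treatments lay far apart. Gene counts came to 22370521 to 22378536 per vha-6 RNAi library and 22503440 to 22553227 per vha-16 RNAi library. Levels are given as CPM, a gene's count for a fixed library total after scaling by edgeR's TMM factors (trimmed mean of M-values), and every test is edgeR's quasi-likelihood test with Benjamini-Hochberg adjustment over all genes tested. A gene is called at adjusted p under 0.05. Of the 17043 genes, 10705 (62.8%) were called, 5313 of them higher (31.2%) and 5392 lower (31.6%) under vha-6 RNAi. Called differences of 2-fold or more numbered 1260 higher (7.39%) and 1383 lower (8.11%), 15.5% of genes in all. With genes under a mean of 5 CPM removed, which tests fewer genes, these were 688 and 911. The 3 values of one group lay wholly above those of the other in 11351 genes (66.6%), so non-overlap by itself is common here. In the same fit vha-16 RNAi against vha-19 RNAi gave 2961 calls, with 71 and 18 of 2-fold or more, beside 1072 and 1191 for vha-6 RNAi against vha-19 RNAi. Because most genes were called, the size of a difference says more here than the call. The median log2 fold change over all genes was 0.01, and fold changes are written as vha-6 RNAi over vha-16 RNAi throughout, with a lone signed number after a gene or in brackets being a log2 fold change. The labels do not say that the replicates were separate cultures, so what a p-value measures is the spread among these libraries alone, and that spread may be technical.

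**Figure D1:**
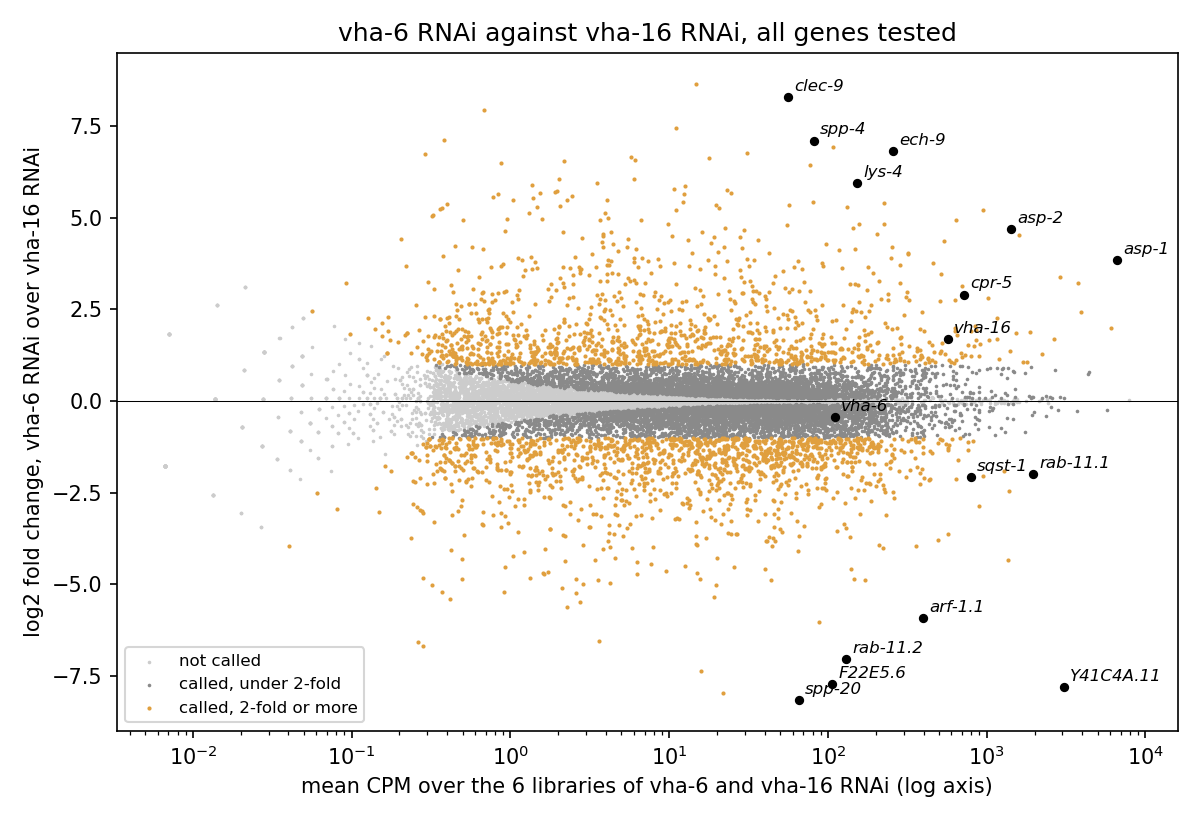
Each point is a gene, with the mean CPM over the 6 libraries on a log axis and the log2 fold change of vha-6 over vha-16 RNAi on the vertical axis; grey points were not called or differ by less than 2-fold, and orange points are called differences of 2-fold or more. The 1260 genes above and 1383 below the 2-fold lines include clec-9 and rab-11.2 as well as highly read genes such as asp-1 and Y41C4A.11.

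The targeted genes check the labels. The vha-6 gene (WBGene00006915, II:11435210-11438452, WBcel235) was at 89.2, 98.5 and 93.3 CPM in the vha-6 RNAi libraries and 127, 126 and 128 CPM in the vha-16 RNAi libraries. It was lower under its own RNAi without overlap, by a log2 fold change of -0.44 (SE 0.0366, adjusted p = 8.19e-13), although both groups lay far under the control mean of 401 CPM and near the vha-19 RNAi mean of 116 CPM. The vha-16 gene (WBGene00016258, I:5079910-5082279) was at 896, 854 and 862 CPM under vha-6 RNAi and 269, 276 and 262 CPM under vha-16 RNAi. Its control mean was 441 CPM, so the values lay above control in one group and below it in the other. The difference was 1.69 (SE 0.0329, adjusted p = 7.51e-31). The accessory subunit gene vha-19 (WBGene00021952, IV:3369197-3373485) was at 796, 781 and 767 CPM under vha-6 RNAi and 319, 321 and 314 CPM under vha-16 RNAi, against a control mean of 470 CPM. It was targeted in neither group and differed by 1.30 (SE 0.033, adjusted p = 2.16e-27).

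V-ATPase genes were higher under vha-6 RNAi in both sectors. Of 12 membrane-sector genes 10 were higher and 2 lower, with 8 higher by 2-fold or more and a median log2 fold change of 1.15. The 10 include vha-16, the target of the compared group, so its 1.69 is not separate from that knockdown. It also enters the 8, the median and the V0 share. The exceptions were vha-6 itself and unc-32 (-0.17, adjusted p = 5.65e-05), the a subunit of the nervous system. The other a subunits were higher, vha-5 by 1.21 and vha-7 by 0.61. The proteolipid genes, which form the proton-carrying ring, were higher together, with vha-1 at 1.09, vha-2 at 1.36, vha-3 at 1.37 and vha-4 at 1.04. The small e subunit vha-17 followed at 0.93 and the accessory gene vha-20 at 1.35. Because vha-2 and vha-3 are near copies of each other, the split of reads between them is uncertain.

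In the cytosolic sector 8 of 9 genes were higher, all by 2-fold or more, and the median was 1.46. The B subunit gene vha-12, part of the ATP-hydrolysing head, was at 1388, 1339 and 1379 CPM under vha-6 RNAi and 351, 361 and 351 CPM under vha-16 RNAi. Each vha-6 RNAi library was above every vha-16 RNAi library, and the control mean of 670 CPM lay between the groups (log2 fold change 1.95, SE 0.0308, adjusted p = 1.86e-33). The A subunit gene vha-13 stood at 1576 ± 20.6 against 497 ± 5.56 CPM (SD, n = 3 each; 1.67), with a control mean of 906 CPM. The stalk genes vha-8 (E subunit, 1.66), vha-11 (C subunit, 1.55), vha-10 (G subunit, 1.34), vha-14 (D subunit, 1.15) and vha-9 (F subunit, 366 against 171 CPM on average) were higher too, as was vha-15 (1.46), which encodes an H subunit. The remaining H subunit gene, vha-18, was lower (-0.34). As a share of all gene counts, the V1 list took 0.721% in vha-6 RNAi worms, 0.260% in vha-16 RNAi worms, 0.264% in vha-19 RNAi worms and 0.303% in control. The V0 list took 0.656%, 0.306%, 0.301% and 0.340% in the same order.

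**Figure D2:**
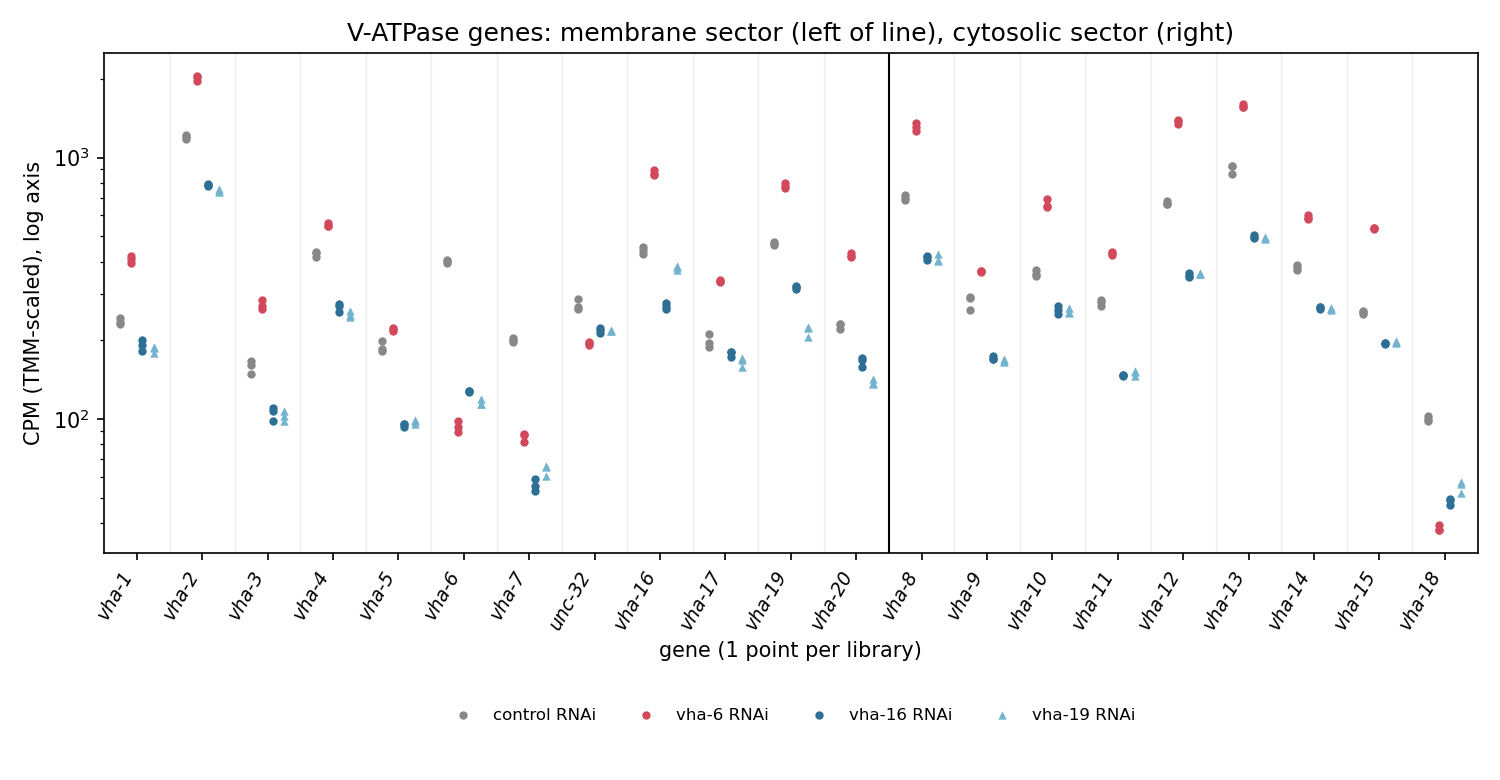
Each point is the level of 1 library in CPM on a log axis for the V-ATPase genes, membrane sector to the left of the line and cytosolic sector to the right, with colours for the 4 treatments. For most genes the 3 vha-6 RNAi points are the highest of the 4 treatments and the vha-16 and vha-19 RNAi points are the lowest, while vha-6 is at 401 CPM in control and lowest under its own RNAi.

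Lysosomal and digestive aspartyl proteases showed a large difference. Of 17 cathepsin D-like asp genes tested, 14 were higher under vha-6 RNAi, all by 2-fold or more, 2 were lower and 1 was not called, and the median log2 fold change was 3.76. Together they took 4.31 ± 0.091% of gene counts under vha-6 RNAi and 0.6 ± 0.011% under vha-16 RNAi, beside 0.654 ± 0.015% in control (SD, n = 3). Libraries of whole worms cannot tell apart more cells of a type from more RNA per cell, here or in any result that follows. The gut protease gene asp-1 was at 12755, 11932 and 12590 CPM under vha-6 RNAi and 855, 866 and 857 CPM under vha-16 RNAi, with a control mean of 2656 CPM. The vha-6 RNAi libraries were thus all above control and the vha-16 RNAi libraries all below it (3.85). The gene asp-3 was at 6989, 6603 and 6832 CPM against 718, 746 and 704 CPM, with a control mean of 1117 CPM (9.42-fold), again on either side of control.

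Other members of the family repeated this pattern. The gene asp-5 was at 3076, 3034 and 3049 CPM against 134, 136 and 128 CPM (4.52), and asp-2 at 2804, 2646 and 2746 CPM against 101, 113 and 102 CPM (4.70). The groups of libraries did not overlap in either gene. The gene asp-10, now hrg-7, was at 5262, 5252 and 5317 CPM against 500, 521 and 497 CPM, with a control mean of 295 CPM (3.38). Its product is a secreted protease known from signalling between tissues in heme balance, and both knockdowns lay above control. The exceptions included asp-4, the worm's closest cathepsin D and a protease of necrotic cell death, at 249, 259 and 260 CPM under vha-6 RNAi and 484, 522 and 496 CPM under vha-16 RNAi (-0.97). The gene asp-17 was also lower, at 36.3, 33.9 and 35.2 CPM against 126, 125 and 121 CPM (-1.82).

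Cysteine proteases went both ways. Of 11 cathepsin B-, L- and Z-like genes, 7 were higher and 3 lower, with 5 higher by 2-fold or more, and the median was 0.22. Intestinal cathepsin B genes made up the larger differences. The gene cpr-5 was at 1288, 1232 and 1280 CPM under vha-6 RNAi and 177, 173 and 159 CPM under vha-16 RNAi (2.90), the latter next to the control mean of 170 CPM. The gene cpr-1 was at 509, 512 and 511 CPM against 56.5, 56.2 and 52.8 CPM (3.21), both under the control mean of 791 CPM. The genes F57F5.1 (cpr-9, 3.15), cpr-8 (1.99) and cpr-4 (1.89) were higher as well. In contrast cpl-1, the cathepsin L of lysosomes and yolk processing, was at 485, 505 and 501 CPM against 694, 712 and 695 CPM (-0.49), and cpr-3 was lower by -0.62. The cathepsin Z genes differed little, with cpz-1 at 0.22 and cpz-2 at -0.27, and cpr-2 (-0.28) was not called.

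Lipid-degrading enzymes, most of them lysosomal, were higher in 14 of 20 genes, 13 of them by 2-fold or more, and lower in 2, with a median of 1.73. The list also counts the genes spl-1, tag-38 and Y104H12D.3, which do not encode lysosomal enzymes. The acid ceramidase gene asah-1 was at 446, 424 and 446 CPM under vha-6 RNAi and 10.5, 10.2 and 10.2 CPM under vha-16 RNAi. The control mean was 80.4 CPM, so the knockdowns lay on either side of it (5.41, SE 0.0504). The glucocerebrosidase gene gba-4 was at 217, 208 and 216 CPM against 1.69, 1.65 and 1.85 CPM (6.94), and here control at 120 CPM was also between them. The acid sphingomyelinase gene asm-2 was at 43.9, 42.7 and 43.7 CPM against 1.41, 1.69 and 1.85 CPM (4.72), while its paralog asm-1 was lower (-0.59). The lysosomal lipase gene lipl-1 was at 40.4 ± 2.01 CPM against 3.91 ± 0.407 CPM (3.36). The opposite came from lipl-8 (-3.05), at 0.509 CPM or less on average in both groups.

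Glycosidases, phosphatases and nucleases were mixed. Of 29 tested, 14 were higher and 11 lower, with 9 higher and 2 lower by 2-fold or more and a median of 0.12. The acid alpha-glucosidase gene aagr-1 was at 129, 123 and 130 CPM against 13.4 CPM in each vha-16 RNAi library (3.25), and the beta-galactosidase gene bgal-2 at 53.7 ± 1.97 against 5.62 ± 0.299 CPM (3.26). The acid phosphatase genes went both ways. The gene pho-13 was higher by 2.74, while pho-14 was at 69.5, 67.2 and 67.7 CPM against 323, 349 and 336 CPM (-2.30) and pho-6 was lower by -2.37.

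Genes of the lysosomal membrane went in both directions. Of 33 genes 17 were higher and 12 lower, 7 higher and 1 lower by 2-fold or more, with a median of 0.15. The scavenger receptor gene scav-4, related to mammalian CD36 and LIMP2, was higher (41.9 ± 0.779 against 2.25 ± 0.0391 CPM, 4.22), and its relative scav-3 was lower (-1.26). The mucolipin channel gene cup-5 was at 41.8, 40.6 and 43 CPM against 67.3, 67.2 and 68 CPM (-0.69). The LAMP-like gene lmp-1 was at 161, 170 and 168 CPM against 260, 264 and 242 CPM (-0.62). Both were lower in every vha-6 RNAi library than in any vha-16 RNAi library, and cup-5 in both groups was below the control mean of 146 CPM.

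**Figure D3:**
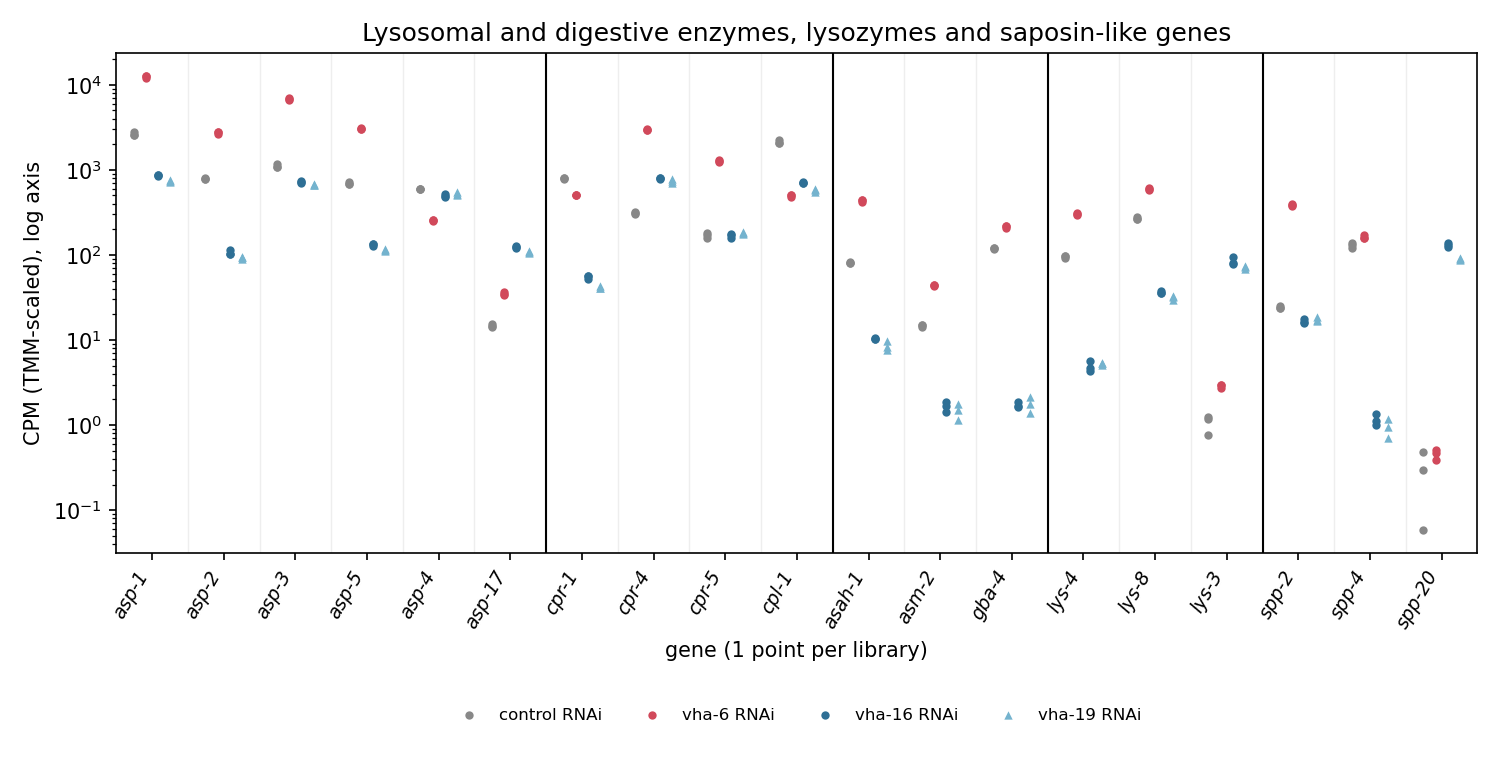
Each point is the level of 1 library in CPM on a log axis for proteases, lipid-degrading enzymes, lysozymes and saposin-like genes, separated by vertical lines, with colours for the 4 treatments. In asp-1, asp-2, asp-3, asp-5, asah-1, gba-4 and lys-4 the vha-6 RNAi points are far above the vha-16 RNAi points, while asp-4, asp-17, cpl-1, lys-3 and spp-20 show the reverse order.

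Antimicrobial effectors of the gut differed widely in both directions. Lysozymes, which cut bacterial cell walls, were higher in 10 of 13 genes and lower in 3, 9 and 1 by 2-fold or more, with a median of 2.74. The gene lys-4 was at 293, 300 and 312 CPM under vha-6 RNAi and 5.6, 4.3 and 4.7 CPM under vha-16 RNAi (5.95), and lys-8 was at 600 ± 15.3 against 36.5 ± 0.665 CPM (4.04). Neighbouring genes on chromosome V went in opposite directions. The gene lys-2 (V:10280307-10281474) was at 476, 454 and 481 CPM against 29, 34.3 and 30.7 CPM (3.91), and lys-3 (V:10282100-10283544) at 2.87 ± 0.124 CPM against 84.5 ± 7.77 CPM (-4.88).

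Saposin-like spp genes, some of which encode pore-forming peptides, were higher in 13 of 25 and lower in 8, with 12 and 3 by 2-fold or more and a median of 0.30. The gene spp-4 was at 157, 170 and 158 CPM against 1.37, 1.01 and 1.12 CPM (7.11), and spp-2 at 391, 394 and 380 CPM against 15.8, 16.4 and 17.5 CPM (4.55). Among called genes with a mean of at least 5 CPM, spp-20 had the largest difference in the other direction, at 0.384, 0.468 and 0.511 CPM under vha-6 RNAi and 130, 139 and 123 CPM under vha-16 RNAi (-8.15, SE 0.101, adjusted p = 1.62e-36). Under vha-6 RNAi it was thus near the control mean of 0.277 CPM, and vha-19 RNAi at 90.1 ± 2.02 CPM was on the side of vha-16 RNAi.

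C-type lectin genes, a large family of secreted sugar-binding proteins many of which respond to pathogens, were higher in 115 of 171 genes tested and lower in 23, with 89 and 12 by 2-fold or more and a median of 1.06. They took 1.16 ± 0.032% of gene counts under vha-6 RNAi and 0.419% under vha-16 RNAi. The gene clec-9 was at 113, 110 and 111 CPM against 0.403, 0.442 and 0.201 CPM (8.30, 314-fold, adjusted p = 1.57e-36). It was near 0 in control too, with a mean of 0.0393 CPM. The genes clec-70 (61.1 ± 4.60 against 0.55 ± 0.083 CPM, 6.78) and clec-45 (35.2 ± 0.988 against 0.349 ± 0.101 CPM, 6.64) were similar. The gene clec-5 was the reverse, at 10.5, 10.4 and 12.8 CPM against 256, 283 and 266 CPM (-4.58).

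Antimicrobial peptide genes went in both directions. Of 45 abf, cnc, nlp, fip and fipr genes, 26 were lower and 15 higher under vha-6 RNAi, 20 and 5 by 2-fold or more, with a median of -0.49. All 8 cnc genes were lower (median -3.48), while of 19 fipr genes 10 were higher and 5 lower (median 0.44). The gene nlp-26 was also higher (1.24). The caenacin gene cnc-4 was at 8.53, 7.66 and 7.54 CPM against 97.8, 96.1 and 88.7 CPM (-3.57). The gene nlp-29, the standard reporter of epidermal infection and wounding, was at 7.25, 6.64 and 7.75 CPM against 54, 54.8 and 56.2 CPM (-2.93), and nlp-34 was lower by -3.18. In cnc-4, nlp-29 and nlp-34 the vha-6 RNAi values were nearer to control, whose means were 1.54, 2.85 and 2.05 CPM. Genes of the intracellular pathogen response were lower in part. Of 30 pals genes 19 were lower and 3 higher, 9 and 3 by 2-fold or more, with a median of -0.66, and dct-3 was at 5.91 ± 0.407 against 21.8 ± 1.62 CPM (-1.88). Cullin and Skp1-related genes of ubiquitin ligases were lower in 11 of 21 and higher in 2, with cul-6 at 15.4, 15.3 and 14.7 CPM against 59.5, 61.9 and 58.2 CPM (-1.98) and skr-5 at 10.6, 10.4 and 9.54 CPM against 59.0, 62.6 and 57.4 CPM (-2.55). Of this list 61.9% were called, near the 62.8% of all genes, and 33.3% by 2-fold or more, beside 15.5% of all genes.

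Outside these families, the genes with the largest rises included metabolic genes and F58E6.8, which has no described role in the annotation used. F58E6.8 (V:9754995-9755825) was at 32.8, 26.3 and 28.7 CPM under vha-6 RNAi and 0.0403, 0 and 0.161 CPM under vha-16 RNAi, the latter on 5 reads in all (8.66). It lies just before hrg-3 (V:9756468-9757019), a heme-carrying secreted protein of the intestine, at 243, 247 and 253 CPM against 26.8, 29.4 and 24.3 CPM (3.21). The enoyl-CoA hydratase gene ech-9, an enzyme of fatty acid breakdown, was at 548, 480 and 502 CPM against 4.95, 4.26 and 4.3 CPM (6.82). The methyltransferase gene comt-2 was at 22 ± 0.932 against 0.121 ± 0.0401 CPM (7.44) and the MATH-domain gene math-34 at 24.7 ± 1.32 against 0.416 ± 0.168 CPM (5.88).

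Heme-responsive genes were higher almost throughout. Of 12 genes 11 were higher and none was lower, 6 by 2-fold or more, with a median of 1.11, and hrg-5 (-1.18) was not called. The intestinal heme importer gene hrg-4 was at 55.4, 60.8 and 59.0 CPM against 5.96, 6.27 and 5.74 CPM (3.28). The heme exporter gene mrp-5 (0.60) and the lysosomal heme transporter gene hrg-1 (1.31) differed less. The heme list shares asp-10 with the aspartyl proteases and hrg-1 with the lysosomal membrane list. It also shares ftn-1 and ftn-2 with the metal list, so its counts are not separate from those results. Genes of iron, zinc and other metals were mixed, 16 of 31 higher and 10 lower, 6 and 4 by 2-fold or more, with a median of 0.18. The ferritin gene ftn-1, which stores iron, was at 8.11, 9.62 and 8.65 CPM against 1.57, 1.29 and 1.49 CPM (2.60), yet the ferroportin-like exporter gene fpn-1.1 was lower (29.7 ± 1.24 against 153 ± 2.75 CPM, -2.36). The metallothioneins, which bind cadmium and zinc, were opposed, with mtl-1 at 4.1, 5.19 and 4.6 CPM against 46.8, 42.1 and 44.5 CPM (-3.26) and mtl-2 at 5.46, 7.07 and 6.81 CPM against 0.805, 1.21 and 0.803 CPM (2.77).

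Membrane trafficking genes were lower. Of 73 endosome, ESCRT, Rab and sorting genes 54 were lower and 5 higher, 19 and 1 by 2-fold or more, with a median of -0.46. The list took 0.663% of gene counts under vha-6 RNAi and 1.48% under vha-16 RNAi, beside 0.762% in control. The recycling endosome GTPase gene rab-11.1 was at 800, 750 and 796 CPM against 3122, 3126 and 3109 CPM (3.99-fold lower), with a control mean of 1034 CPM. Its paralog rab-11.2 (I:11632983-11638491) was at 1.92, 1.83 and 2.13 CPM against 252, 268 and 252 CPM (-7.03, 131-fold, adjusted p = 3.15e-38). In control rab-11.2 was at 0.475 CPM, so the gene was near its control level under vha-6 RNAi and far above it under vha-16 RNAi. The ARF-like gene arf-1.1 (now warf-1, IV:7634786-7635712) was at 14.9, 11.5 and 12.5 CPM against 763, 814 and 770 CPM (-5.91), from a control mean of 1.82 CPM. The retromer gene snx-1 (41.2 ± 1.96 against 144 ± 2.72 CPM, -1.80) and the ESCRT-I gene vps-28 (34 ± 0.278 against 113 ± 2.57 CPM, -1.74) were lower too. The polarity GTPase gene cdc-42 was at 164, 165 and 166 CPM against 421, 403 and 413 CPM (-1.32).

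Y41C4A.11 (III:11719860-11721077), which has no described role in the annotation used, was at 28.6, 26.6 and 26.7 CPM under vha-6 RNAi and 6032, 6148 and 6017 CPM under vha-16 RNAi (-7.79, 222-fold, SE 0.0872, adjusted p = 8.15e-38). Its control mean was 20.4 CPM and its vha-19 RNAi mean 5560 ± 148 CPM. F22E5.6 at 1.07, 0.766 and 1.19 CPM against 203, 220 and 214 CPM (-7.71) and the arrestin-domain gene arrd-11 at 0.256, 0.213 and 0.0852 CPM against 31.6, 31.1 and 31.8 CPM (-7.37) showed the same order. The beta-tubulin gene tbb-6 was at 11.9 CPM at most in the vha-6 RNAi libraries, against 327, 333 and 326 CPM (29.5-fold lower), and the astacin protease gene nas-10 was lower by -5.02.

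Autophagy genes were lower in 26 of 27 cases, 8 by 2-fold or more, with none higher and a median of -0.78. Their share of raw gene counts was 0.222% in vha-6 RNAi worms, 0.488% in vha-16 RNAi worms, 0.450% in vha-19 RNAi worms and 0.176% in control. These shares lack the TMM scaling, which raises control beside the knockdowns, so they do not settle the order of control and vha-6 RNAi. The receptor gene sqst-1, the worm p62, was at 309, 299 and 309 CPM against 1282, 1269 and 1286 CPM, from a control mean of 63.6 CPM (-2.06, adjusted p = 9.85e-33). The ATG8 gene lgg-1, whose product coats the autophagosome, was at 543, 542 and 537 CPM against 1006, 1044 and 998 CPM (-0.91). The initiation gene epg-9 (ATG101, -1.56) and the conjugation gene atg-16.2 (-1.47) were lower, and the only gene not called was epg-3 (0.03). The genes vps-34 and vps-15 are counted in the trafficking list as well. The transcription factor gene hlh-30, the worm TFEB that drives lysosomal and autophagy genes, was at 158, 164 and 163 CPM against 201, 188 and 201 CPM (-0.28), and its antagonist mxl-3 at 86.2, 97.4 and 90.8 CPM against 45.6, 53.2 and 42.3 CPM (0.96). Of 22 TORC1 and HLH-30 network genes 13 were lower and 4 higher, none by 2-fold, with a median of -0.14. Among 10 GATA factor genes 3 were lower, elt-7 (-0.68), elt-6 (-0.42) and the intestinal regulator elt-2 (46.9, 47.5 and 44.8 CPM against 53.9, 55.2 and 56.8 CPM, -0.25), and 1 was higher, elt-4 (0.41, adjusted p = 0.0438), whose adjusted p ranged from 0.0216 to 0.154 over the alternatives, with the call lost in 7 of them. The remaining 6 were not called, among them the epidermal elt-3 (0.07, adjusted p = 0.127).

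Folding stress genes of different compartments went in different directions. In the endoplasmic reticulum 20 of 25 genes were lower and 2 higher, 2 lower by 2-fold or more, with a median of -0.41. The BiP gene hsp-4 was at 993, 875 and 940 CPM against 1711, 1626 and 1692 CPM (-0.84), with a control mean of 597 CPM, and the sensor gene ire-1 at 117, 114 and 116 CPM against 298, 292 and 311 CPM (-1.38). Among cytosolic heat-shock and chaperonin genes 23 of 29 were lower and 4 higher, with a median of -0.37. The small heat-shock genes hsp-16.48 (2.40 ± 0.751 against 31.9 ± 0.603 CPM, -3.73), hsp-43 (118 ± 2.74 against 374 ± 13.3 CPM, -1.66) and hsp-17 (63.8 ± 3.58 against 201 ± 6.80 CPM, -1.65) had the most negative fold changes of the genes named by rule, and 1 gene was higher by 2-fold or more, hsp-12.3 (3.41 ± 0.186 against 1.06 ± 0.122 CPM, 1.68), named after its value was seen. Of 33 proteasome subunit genes 32 were lower, none by 2-fold, with a median of -0.42, led by pbs-7 (101 ± 4.14 against 172 ± 3.56 CPM, -0.76). The 1 higher gene was rpn-6.2 (0.25), named after its value was seen.

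Mitochondrial genes were higher. Of 20 genes of the mitochondrial unfolded protein response and protein import, 16 were higher and 2 lower, with a median of 0.54. The chaperone gene hsp-60 was at 114, 116 and 119 CPM against 41.6, 39.5 and 42.2 CPM (2.83-fold), and hsp-6 at 618, 616 and 631 CPM against 306, 271 and 283 CPM (1.12). Both groups were below the control means of 383 and 877 CPM. Of 86 oxidative phosphorylation genes 78 were higher and 5 lower, 7 higher by 2-fold or more, with a median of 0.59, and the list took 2.38% of gene counts against 1.65%, beside 2.63% in control. The ATP synthase gene asb-2 (540 ± 6.12 against 232 ± 11.9 CPM, 1.22) and the complex I gene gas-1 (152 ± 3.19 against 69.8 ± 2.41 CPM, 1.13) had the largest differences. Of the 5 lower genes, 4 are encoded in mitochondrial DNA, ctb-1 (-0.38), nduo-1 (-0.22), nduo-2 (-0.40) and ctc-2 (-0.22). The 11 genes of mitochondrial DNA as a whole, a list made after values were seen, had 7 higher and 4 lower, with a median of 0.21. Mitochondrial ribosome genes were higher in 53 of 69 (median 0.25), whereas cytosolic ribosome genes gave 16 higher, 16 lower and 50 not called, with a median that changes sign with the scaling (from -0.08 with library totals to 0.05 with DESeq2's size factors).

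**Figure D4:**
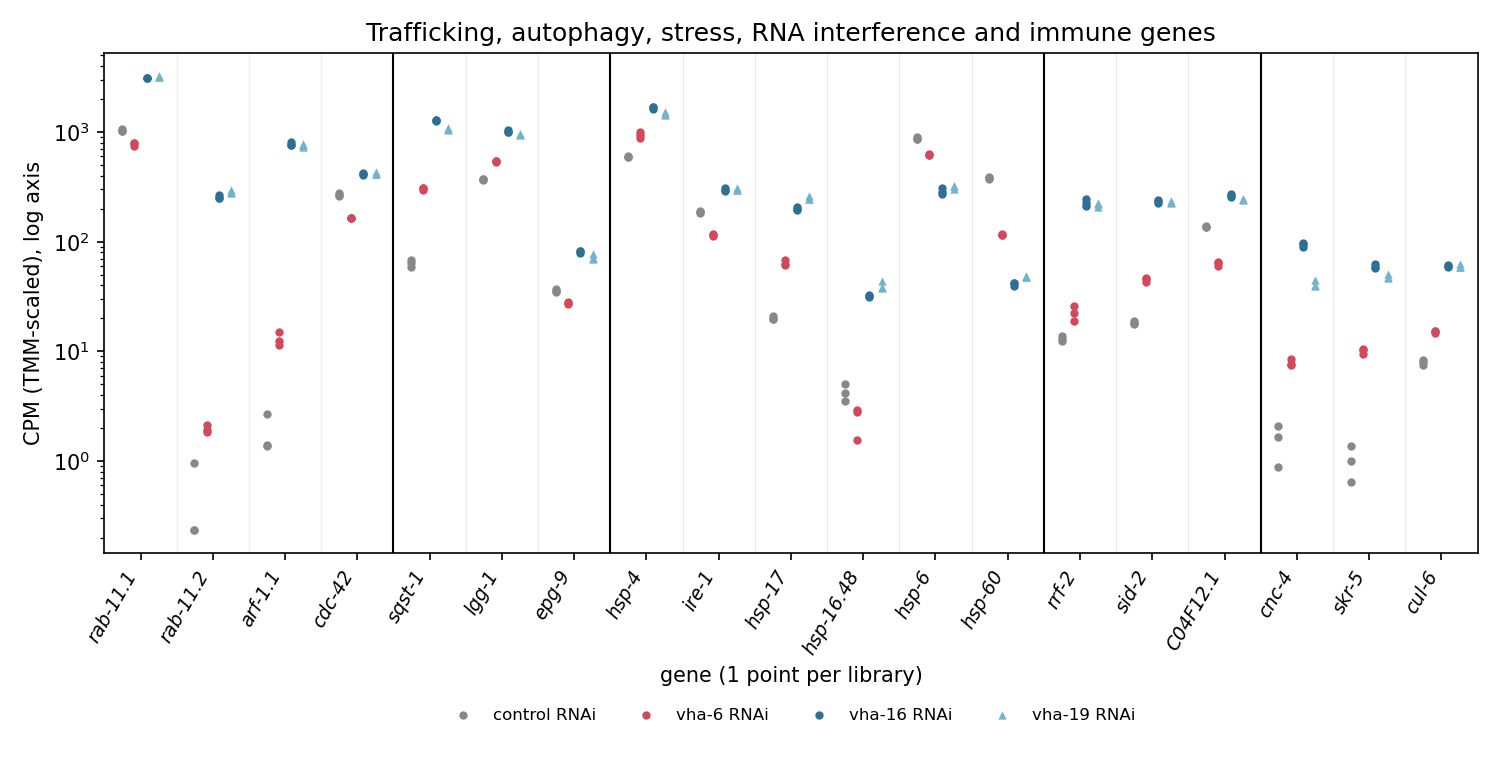
Each point is the level of 1 library in CPM on a log axis for trafficking, autophagy, folding stress, RNA interference and immune genes, separated by vertical lines, with colours for the 4 treatments. In rab-11.2, arf-1.1, sqst-1, rrf-2, cnc-4 and skr-5 the vha-16 RNAi points lie far above the vha-6 RNAi points, and hsp-6 and hsp-60 show the reverse order.

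Fat and carbohydrate metabolism was mostly higher under vha-6 RNAi. Of 43 fatty acid oxidation genes 35 were higher and 4 lower, 10 higher by 2-fold or more (median 0.60), and of 59 fat synthesis genes 34 were higher and 15 lower (median 0.25). The fatty acid elongase gene elo-6 was at 308, 333 and 327 CPM against 49.9, 53.3 and 52.7 CPM (2.63), below the control mean of 605 CPM in both. The desaturase gene fat-7 was at 8.06, 8.68 and 8.47 CPM against 0.644, 0.161 and 0.482 CPM (4.28), far under the control mean of 162 CPM in both. Glycolysis and gluconeogenesis genes were higher in 25 of 34 and lower in 2 (median 0.60), with the trehalase gene tre-3 at 101, 105 and 103 CPM against 22, 24.4 and 23.3 CPM (2.15) and pck-1, which feeds gluconeogenesis, at 439, 434 and 440 CPM against 103, 113 and 111 CPM (2.00). Genes of vitamin B12-dependent and alternative propionate breakdown were higher in 10 of 12 and lower in 1 (median 0.78), acdh-1 among them (45.9, 54.8 and 52 against 23.4, 31.3 and 26.2 CPM, 0.92), although both groups were far under the control mean of 1488 CPM. Of 33 one-carbon genes 27 were higher and 4 lower (median 0.47), and the folate transporter gene folt-2 was at 43.9, 44.1 and 42.3 CPM against 3.06, 3.14 and 2.97 CPM (3.83), with 550 CPM in control.

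Detoxification and redox genes were mixed with a lean to higher values. UDP-glucuronosyltransferases were higher in 39 of 63 and lower in 8, 23 and 2 by 2-fold or more (median 0.60), led by ugt-18 at 281, 272 and 273 CPM against 10.1, 10.9 and 10.3 CPM (4.72) from a control mean of 0.473 CPM. Cytochrome P450 genes were higher in 35 of 71 and lower in 18 (median 0.34), with cyp-37B1 at 26.4 ± 1.44 against 1.60 ± 0.383 CPM (4.04) and cyp-13A5 at 33.8 ± 0.816 against 158 ± 2.61 CPM (-2.23). Of 73 redox genes 33 were higher and 20 lower (median 0.21). The omega-class glutathione transferase gene gsto-1 was at 371, 385 and 379 CPM against 36.4, 41.7 and 38.6 CPM (3.28), and the thioredoxin gene trx-3 at 12.8, 13 and 13.2 CPM against 84.3, 92.0 and 88.0 CPM (-2.76). The called part was 74.6% of glucuronosyltransferase, 74.6% of P450 and 72.6% of redox genes, beside 62.8% of all genes. By 2-fold or more it was 39.7%, 42.3% and 27.4%, beside 15.5%. In the hypoxia and sulfide list 12 of 20 were higher, 2 lower and 6 not called (median 0.20), 4 higher by 2-fold or more. Its called part was thus near that of all genes. The list includes the carbonic anhydrase genes cah-1 to cah-6. Its member cysl-2 encodes a cyanide- and hydrogen sulfide-handling enzyme regulated by HIF-1. It was at 224, 206 and 216 CPM against 33.7, 35.9 and 34.6 CPM (2.63). The gene hif-1 itself (0.03) was not called.

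Insulin-like peptides, DAF-16 outputs and nuclear hormone receptors went in both directions. Of 72 genes of the insulin, dod and scl list 16 were higher and 28 lower, with a median of -0.12. The called part, 61.1%, was near the 62.8% of all genes. By 2-fold or more 5 were higher and 13 lower, 25.0% of the list beside 15.5% of all genes. The gene dod-24 was at 35.5, 34.6 and 34.3 CPM against 1.85, 1.49 and 1.89 CPM (4.31), and dod-19 at 427, 421 and 431 CPM against 2310, 2363 and 2310 CPM (-2.45). The insulin-like gene ins-7 was at 4.05, 3.28 and 3.75 CPM against 33.1, 33.9 and 32 CPM (-3.16). The FOXO gene daf-16 differed by 0.09 (adjusted p = 0.0296, from 0.000623 to 0.769 over the alternatives, with the call lost in 3 of them), and its output sod-3 by 1.22. Nuclear hormone receptor genes were lower in 99 of 209 and higher in 44 (median -0.22), and nhr-31, a receptor needed for the V-ATPase and the excretory cell, was the reverse at 385, 370 and 374 CPM against 92.1, 93.1 and 92.7 CPM (2.02). F-box, BTB and MATH-domain genes, taken as a joint list, were lower in 123 and higher in 86 of 386. By 2-fold or more 67 were lower and 43 higher, and the median was -0.05. The called part was 68.4% of nuclear hormone receptor genes and 54.1% of the F-box, BTB and MATH list. By 2-fold or more it was 18.2% and 28.5%, beside 15.5% of all genes.

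RNA interference genes went in both directions. In this list 75.0% were called, beside 62.8% of all genes, but only 7.69% by 2-fold or more, beside 15.5% of all genes. Of 52 such genes 22 were higher and 17 lower, 4 lower by 2-fold or more, and the median of 0.02 became -0.05 when library totals were used. The RNA-dependent RNA polymerase gene rrf-2 was at 18.8, 26.1 and 22.1 CPM against 227, 213 and 245 CPM (-3.35). The gene sid-2, whose product takes up double-stranded RNA from the gut lumen, was at 46.8, 43 and 45.3 CPM against 233, 241 and 228 CPM (-2.38), with a control mean of 18.3 CPM. The Argonaute gene C04F12.1 (vsra-1) was at 65.1, 59.5 and 63.6 CPM against 260, 258 and 273 CPM (-2.07), and the Argonaute gene wago-1 was higher (259 ± 15.3 against 174 ± 8.31 CPM, 0.57). Both groups were below the wago-1 control mean of 954 CPM. Whether these levels go with a different strength of knockdown was not tested.

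Oocyte and germline genes took 0.710% of gene counts under vha-6 RNAi and 0.674% under vha-16 RNAi, beside 2.89% in control. Of 75 tested, 41 were higher, 11 lower and 23 not called, with a median of 0.14. The called part, 69.3%, was near the 62.8% of all genes. None differed by 2-fold, beside 15.5% of all genes. The yolk receptor gene rme-2 was at 56.7, 57.8 and 57.2 CPM against 56.4, 55.6 and 56.2 CPM (0.03, adjusted p = 0.521) and the oocyte maturation gene oma-2 at 34, 34.9 and 35.6 CPM against 36.9, 34.8 and 33.5 CPM (-0.01, adjusted p = 0.876), beside control means of 754 and 749 CPM. Sperm genes took 0.366% and 0.386%, with 25 higher, 24 lower and 47 not called of 96. Their called part was under that of all genes, and 1.04% differed by 2-fold or more. Many msp genes are near-identical copies, and the split of reads among them is uncertain. Of 13 heterochronic genes, which time larval stages, 7 were lower and 3 higher, none by 2-fold, and lin-29 (0.16), the factor of the adult switch, was not called. Cell cycle genes were higher in 30 of 54 and lower in 11, with a median of 0.11. The called part was 76.9% of heterochronic and 75.9% of cell cycle genes, beside the 62.8% of all genes. Of cell cycle genes 1.85% differed by 2-fold or more, under the 15.5% of all genes.

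Yolk protein genes were higher in 5 of 6. Together they took 0.961 ± 0.057% of gene counts under vha-6 RNAi and 0.580 ± 0.028% under vha-16 RNAi, both far under the 8.03% of control. The gene vit-2 was at 5187, 5783 and 5384 CPM against 3270, 3075 and 3368 CPM (0.75) and vit-6 at 3317, 3705 and 3439 CPM against 1960, 1826 and 2010 CPM (0.85). The groups did not overlap in either gene. The genes vit-3, vit-4 and vit-5 share most of their sequence, so their separate values (1.48, 0.42 and 1.83) are uncertain, and vit-4 was not called.

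Cuticle collagens were higher in 119 of 164 genes and lower in 14, 44 and 2 by 2-fold or more, with a median of 0.49, and took 3.69% of gene counts against 2.13%. The adult collagen gene col-19 was at 1262, 1209 and 1232 CPM against 409, 467 and 423 CPM (1.51), with a control mean of 1427 CPM. The gene col-81 was at 1016 ± 20.6 against 254 ± 8.75 CPM (2.00), and col-113 at 36.8, 32.6 and 34.3 CPM against 190, 199 and 193 CPM (-2.49). Moulting genes were divided, with 39 higher, 35 lower and 43 not called of 117. Their called part, 63.2%, was near the 62.8% of all genes.

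Marker lists of tissues varied in how far they departed from all genes, of which 62.8% were called and 15.5% by 2-fold or more. Of intestinal genes 96.4% were called and 39.3% by 2-fold or more, and of muscle genes 87.2% and 19.1%. Intestinal genes were higher in 22 of 28 and lower in 5 (median 0.67) and took 2.76% of gene counts under vha-6 RNAi and 0.703% under vha-16 RNAi, beside 0.876% in control. The list contains the proteases asp-1 and asp-3, so this share is not separate from the protease result. It also contains mtl-1 and fat-7, its members with the lowest and highest fold change, which the metal and fat lists count as well. Its member act-5, the actin of microvilli, named after its value was seen, did not pass the test (0.00). Muscle genes were higher in 36 of 47 and lower in 5 (median 0.66). The myosin heavy chain gene unc-54 was at 3109, 3281 and 3089 CPM against 1324, 1237 and 1349 CPM (1.28), with 2208 CPM in control, and the troponin T gene tnt-2 was at 677 ± 10.9 against 232 ± 6.93 CPM (1.54). Neuronal genes were lower in 12 of 37, higher in 7 and not called in 18, and the median of -0.05 became 0.01 when DESeq2's size factors were used. The synaptobrevin gene snb-1 was at 232, 229 and 237 CPM against 565, 563 and 542 CPM (-1.26). Neuropeptide genes were lower in 54 of 95 and higher in 8 (median -0.20). Of 24 epidermal genes 12 were higher and 4 lower (median 0.11). The called part was 51.4% of neuronal, 65.3% of neuropeptide and 66.7% of epidermal genes, near or under that of all genes. By 2-fold or more it was 5.41%, 2.11% and 12.5%, each under the 15.5% of all genes.

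**Figure D5:**
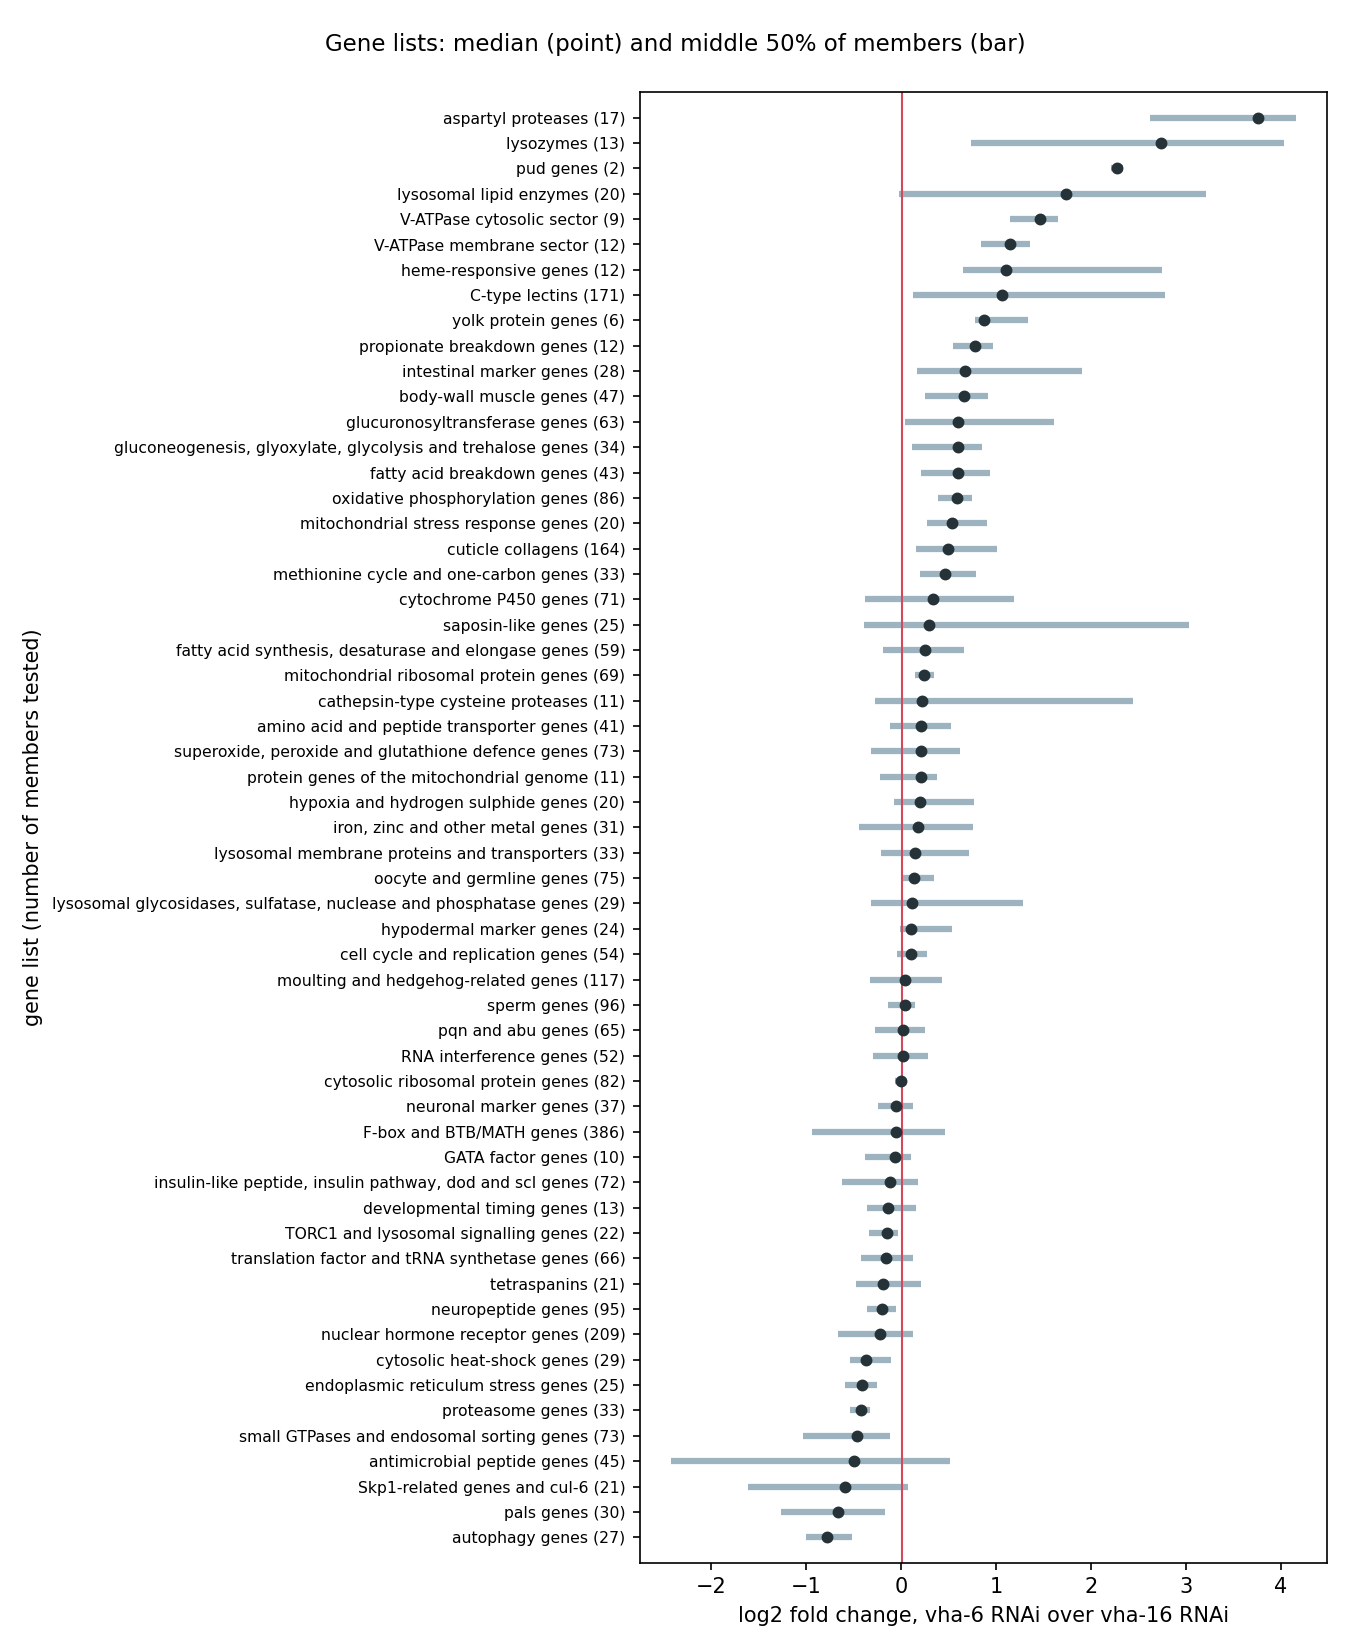
Each point is the median log2 fold change of vha-6 over vha-16 RNAi for 1 gene list, with the number of members tested in brackets, the bar spans the middle 50% of members, and the vertical line is the median of all genes (0.01). Aspartyl proteases (3.76) and lysozymes (2.74) lie farthest to the right and autophagy genes (-0.78) at the left end, with ribosome, sperm and neuronal lists near the line.

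The vha-19 RNAi libraries, which were not used in the contrast, place each difference. Among the 1260 genes higher by 2-fold or more under vha-6 RNAi, the vha-19 RNAi mean was nearer to vha-16 RNAi on the log scale in 1193 (94.7%). Among the 1383 lower genes it was nearer to vha-16 RNAi in 1290 (93.3%). Examples are rab-11.2 with 286 ± 8.36 CPM and asp-1, asp-3 and lys-4, all of which were on the side of vha-16 RNAi under vha-19 RNAi. The gene hsp-43 was different, with a vha-19 RNAi mean of 171 ± 1.99 CPM that was nearer to the 118 ± 2.74 CPM of vha-6 RNAi than to the 374 ± 13.3 CPM of vha-16 RNAi. These positions were counted for the 2-fold calls only, with 0.1 CPM added before logs, so no share over all genes stands beside them. Between vha-16 and vha-19 RNAi only 71 and 18 genes were called by 2-fold or more. Reads that did not map uniquely made up 9.45% to 9.54% of counts under vha-6 RNAi and 7.62% to 7.67% under vha-16 RNAi. The part of this difference in the results was not tested. Among the genes named above, the exons of vha-19, rab-11.2, vha-5, vha-2, vha-17, vha-13, vha-18, asp-2, asp-10, asp-4, cpz-2, asm-1, bgal-2, pho-13, pho-6, scav-4, cup-5, nlp-26, skr-5, hrg-3, arf-1.1, cdc-42, nas-10, ire-1, hsp-17, pbs-7, gas-1, nduo-1, cyp-37B1, gsto-1, trx-3, cysl-2, sod-3, sid-2, vit-2 and col-113 overlap those of other counted genes. Genes named outside the naming rule, after their values were seen, were not checked for overlap. The strand setting of the counting is not given in the sources used here, so reads of such neighbours may be mixed.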

How the data were processed

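Reads were counted per gene by the authors, and the deposited table holds raw counts in whole numbers without any normalization. Of upstream tools, STAR 2.73a and edgeR 3.24.3 are listed in the submitters' processing notes, with WBcel235 as the genome. For the counter and its strand setting, nothing is stated in the labels. All 12 columns were matched to samples by the labels. The 3 entries of unassigned reads (9.92% to 16.9% of counts) were kept out of library sizes and tests.

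In R 4.3.3, edgeR 4.0.16 filtered genes with filterByExpr by treatment (17043 kept, 1424 removed), scaled them by TMM and fitted 1 mean per treatment to all 12 libraries. The contrast of vha-6 minus vha-16 RNAi was tested with the quasi-likelihood F-test and Benjamini-Hochberg adjustment over all genes tested, and genes were called under 0.05. The biological coefficient of variation was 2.99%. Each library was counted as a sample. Pairs of replicates within the 2 groups differed by more than sampling noise (chi-square per degree of freedom 1.52 to 2.86). This does not show that they were separate cultures, because libraries made separately from the same RNA can also differ by more than sampling noise. Depth was 22370521 to 22553227 gene counts in these 6 libraries. The code was tested on simulated counts. Errors are SD over 3 libraries, and SE belongs to log2 fold changes. Current names came from 17447 matched genes and positions from Ensembl release 115 for 18340 genes.

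Members and the gene lists were chosen with earlier results of these data known. There are 57 lists, described by counts and medians without a list test. Of these 4 were corrected by gene name after values were seen: heme without cyp-33 genes, endoplasmic reticulum stress without pqn and abu genes, hypoxia without gcn genes, and amino acid transport without atat genes. A pqn and abu list and a mitochondrial DNA list were added then. Named genes are fixed key genes, the 15 genes with the most positive and the 15 with the most negative fold change, given a call, no overlap between the groups and a mean of at least 5 CPM, and up to 3 members in each direction per list under the same conditions, or whole lists of 12 or fewer. Named outside that rule, after their values were seen, are epg-3, hif-1, lin-29, lipl-1, lipl-8, mtl-2, snx-1, vps-28, act-5, hsp-12.3 and rpn-6.2. The alternatives tried were library totals or DESeq2's size factors as scaling, no filter or a mean of 5 CPM, a fit to the 6 libraries alone, the replicate block, limma-voom (limma 3.58.1), the DESeq2 1.42.0 Wald test, and each of the 6 libraries left out. Plots were made in Python 3.11.15 with matplotlib 3.10.9. Promoter sequences were not used here.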

Additional observations from a re-analysis of the deposited data

How the results depend on the processing

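The number of genes called was 10705, and it was 10969 with DESeq2's size factors, 10659 with library totals, 10653 with limma-voom and 10005 with the DESeq2 Wald test. No gene called in both fits changed sign under any of the alternatives. Removing genes with a mean under 5 CPM, which tests fewer genes, left 688 higher and 911 lower by 2-fold or more. The replicate numbers do not pair the libraries (correlations of deviations -0.019, -0.0077 and 0.010), and with the replicate block 10686 genes were called, 1259 higher and 1382 lower by 2-fold or more. Leaving out each library in turn gave 10161 to 10434 calls, 4979 to 5568 higher and 4859 to 5182 lower, with 1245 to 1352 and 1326 to 1421 by 2-fold or more. The median of all genes moved by 0.05 with DESeq2's size factors and by -0.07 with library totals, and 49.6% of calls were higher as reported, 55.9% and 41.3% under these scalings. Of 369 genes eligible to be named 357 were called, and 0 of these changed direction, while 12 lost their call under at least 1 alternative: daf-16, elt-4, atf-5, cpr-6, lys-7, nos-2, rps-1, rps-7, unc-45, mrps-5, atp-6 and mrpl-55. Of genes not called, oma-2 (-0.01) turned to 0.045 with DESeq2's size factors and with its Wald test, 0.00595 with the 5 CPM filter, and ranged from -0.0268 to 0.0626 with a library left out. Under library totals rme-2 turned to -0.042, elt-3 to -0.0025, egl-27 to -0.068 and nhr-10 to -0.061. With a library left out egl-27 ranged from -0.0041 to 0.0644 and nhr-10 from -0.043 to 0.0762. The cause of these changes was not tested. The list medians of sperm, moulting, ribosome, neuronal, RNA interference and pqn and abu genes change sign with scaling. Genes of a few counts limit the folds of the largest differences, and F58E6.8 rests on 5 reads in the vha-16 RNAi libraries.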

Other observations

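The table was also scanned by gene name stem, over families with at least 8 members tested, and the families and genes given here were chosen after their values were seen. Of all genes tested 62.8% were called, 31.2% higher and 31.6% lower, and the counts below are to be read beside these shares. Among 8 genes of the sma stem 7 were lower in vha-6 RNAi worms, 5 of these by 2-fold or more, with a median log2 fold change of -1.11. They include sma-2, sma-3 and sma-4, the Smad genes of the BMP-like pathway that sets body size, and sma-1, a spectrin of the apical membrane. The Smad gene sma-4 was at 30.5 CPM on average under vha-6 RNAi and 68.7 CPM under vha-16 RNAi (-1.17), and sma-3 at 14.1 against 32.4 CPM (-1.20). The remaining member, sma-10, was higher (0.33). Rab genes were lower in 17 of 20 and genes of the tbc stem, whose products switch Rabs off, in 14 of 18, with none higher in either family. Ubiquitin-conjugating ubc genes were lower in 15 of 21, none higher, with ubc-23 at 8.69 against 34.3 CPM (-1.98), and all 8 chaperonin cct genes were lower (median -0.46).

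Transthyretin-related ttr genes, a family of secreted proteins, were lower in 28 of 56 and higher in 11, with 16 and 1 by 2-fold or more. The gene ttr-15 was at 353 against 808 CPM (-1.19), and ttr-44 was the 1 higher by 2-fold, at 58.1 against 13.2 CPM (2.14). Aquaporin genes, which pass water and glycerol, were higher in 6 of 11 and lower in 2, with aqp-7 at 638 against 305 CPM (1.07) and aqp-4 at 52.6 against 11.9 CPM (2.14). Fatty acid-binding lbp genes were higher in 7 of 9 and lower in 2 (median 0.81), with lbp-6 at 196 against 72.8 CPM (1.43). Among F-box genes the fbxa stem was lower in 87 and higher in 41 of 175, with 49 and 21 by 2-fold or more. By 2-fold or more, 30.4% of ttr, 36.4% of aqp, 44.4% of lbp and 40.0% of fbxa genes differed, beside 15.5% of all genes. Genes that differed by 2-fold or more were not spread evenly over the chromosomes. On chromosome V 12% of 3531 genes tested were higher and 11.8% lower by 2-fold or more, and on chromosome I 3.65% and 4.89% of 2659. The X chromosome had 9.23% and 10.1% of 2362, beside 7.39% and 8.11% of all genes. The reason for these differences was not tested.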
